A study of Mus musculus with 5 samples.

Results

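Eph receptors are receptor tyrosine kinases on the cell surface, and ephrins are their ligands, which are themselves anchored in the membrane of the neighboring cell. Ephrins of the A class are held by a lipid anchor and those of the B class span the membrane. Contact between a receptor and a ligand can therefore signal into both cells and sets adhesion and repulsion. In the lens the family is known for keeping the fiber cells packed in order. In mice loss of EphA2 or of ephrin-A5 is known to disturb that order or the lens as a whole. In blood vessels, ephrin-B2 is a mark of arteries and EphB4 of veins.

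The members examined here were 8 genes of this family, 4 receptors (*Epha2*, *Epha4*, *Ephb2* and *Ephb4*) and 4 ligands (*Efna1*, *Efna5*, *Efnb1* and *Efnb2*). Every probe that the platform annotation assigns to 1 of these symbols was taken. This gave 10 of 45281 probes, with 3 for *Ephb4*, 2 for *Efna5* and 1 each for *Epha2*, *Epha4*, *Efna1*, *Efnb1* and *Efnb2*. No probe of the annotation carried the symbol *Ephb2*, so 7 of the 8 genes were measured. The rule that picks the probes uses no measured value, while the family itself was chosen with earlier results of these arrays known.

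RNA came from lenses of newborn mice (P0, the day of birth) and was hybridized to Illumina MouseWG-6 v2.0 arrays, whose beads carry a short DNA probe per transcript and report its level as fluorescence. The groups were 3 *Celf1*cKO/lacZKI arrays (A, B and C) and 2 control arrays (A and B), each a biological replicate of 2 lenses, and values below are given in the order of these letters. *Celf1*cKO/lacZKI lenses lack a floxed exon of *Celf1*, an RNA-binding protein gene, on one allele through *Pax6GFPCre*, which acts in the lens from the placode stage, and carry a germline *lacZ* knock-in on the other allele. The labels describe the control arrays as wild-type mice of mixed C57BL/6J and FVB background, while the general methods describe controls with floxed alleles or with the Cre driver, and which genotype the arrays hold was not settled here.

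Intensities were deposited on a linear scale, after background correction and normalization between arrays by the authors, and the 5 array medians lay between 5.6 and 7.2. Between 3442 and 8205 probes per array lay at or below 0. For log2 values 36.5 was first added to each intensity, so that the lowest became 16, and changes of dim probes are understated on this shifted scale. The 3 mutant arrays were tested against the 2 control arrays with limma over 34885 probes with 1 gene symbol, with Benjamini-Hochberg adjustment at 0.05, and 4.28% of these probes passed. *Celf1* had 4 probes, of which 3 fell, with log2 fold changes of -2.14, -1.44 and -1.38, and 1 did not pass (0.47, limma adjusted p = 0.121), and their position with respect to the deleted exon is not known here. The Y-linked *Eif2s3y* read 206.9, 177.3 and 4.4 in the mutant, against 2.5 and 1.1 in the control, and *Xist*, which marks cells with 2 X chromosomes, read -0.3, -0.9 and 263.5 in the mutant, against 432.4 and 440.6 in the control, so the sex of the lenses differed within the mutant group. Mutant array C, which matched both controls in this, was therefore also set alone against them. The spread in that fit came from the 2 controls and was moderated toward that of all probes, with no spread between mutant arrays. Of 16 fiber cell markers 6 fell (*Lim2*, *Bfsp2*, *Lgsn*, *Dnase2b*, *Hsf4* and *Maf*) and 0 rose, against 2.68% and 3.15% of all genes. The summed intensity of the 16 markers was between 202755 and 240657 in the mutant, against between 243994 and 256055 in the control. On every array 12 of these 16 genes read above 100. *Gja3*, a connexin gene that defines fiber cells, read 0.7, -0.2 and 1.4 in the mutant, against 8.7 and -8.7 in the control, and so was not seen above background on its probe.

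*Efna5*, which encodes ephrin-A5, a lipid-anchored ligand of the A class, fell in *Celf1*cKO/lacZKI lenses on its brighter probe. This probe read 772.2, 600.1 and 603.5 in the mutant, against 1112.4 and 1274.9 in the control. All 3 mutant arrays lay below both controls. The mutant mean was 659 ± 98.4 (SD, n = 3), against a control mean of 1194 ± 115 (SD, n = 2), so that the mutant intensity was 55.2% of the control intensity. The log2 fold change was -0.83 (SE 0.13, 95% interval -1.12 to -0.54, limma adjusted p = 0.0120), a 1.78-fold fall on the shifted scale. In its mean over the arrays the probe was brighter than 97.1% of all probes, and by fold change it took rank 215 of 34885 probes, counted from the most negative. In mutant array C alone against both controls the log2 fold change was -0.94 (limma adjusted p = 0.0207). Without control array B it was -0.73 and did not pass (adjusted p = 0.114; range over 16 alternatives 0.00458 to 0.306). In whole lenses, fewer cells that carry a transcript and less of it per cell cannot be told apart. Beside this fall, 6 of 16 fiber cell markers fell, as given above, against 2.68% of all genes, and the other 10 did not pass. Of 9 epithelial markers 2 fell (*Trpm3* and *Tfap2a*) and 0 rose, against 2.68% and 3.15% of all genes. The summed intensity of the 9 markers was between 1894 and 2772 in the mutant, against between 3184 and 3518 in the control. For both lists the summed intensity of every mutant array lay below that of both controls, and 15.4% of all single probes did likewise. Crystallin genes and *Mip* made up most of the fiber sum, and none of them passed. *Gja1* and *Pdpn* made up most of the epithelial sum, and on both the groups overlapped. The part of these cells in the *Efna5* value was not tested.

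The other *Efna5* probe, annotated to the same transcript record, was far dimmer and did not pass. It read 16.4, 22.1 and 24.7 in the mutant, against 25.0 and 17.5 in the control. The groups overlapped, and the log2 fold change was -0.0042 (95% interval -0.23 to 0.22, limma adjusted p = 0.992). The probe was brighter than 71.4% of all probes in its mean over the arrays. A log2 change of 0.45 or more was needed for it to pass, and the added constant understates changes at such intensities. A fall to the same share of control as on the brighter probe could therefore be missed here. The change of the brighter probe minus that of the dimmer one was -0.83 on the log2 scale, which includes the understatement on the dimmer one. An exact two-sided permutation test of this per-array difference gave p = 0.2 (0.4 adjusted over the 4 probe pairs compared), where 10 possible splits of the arrays allow no p below 0.1.

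**Figure D1:**
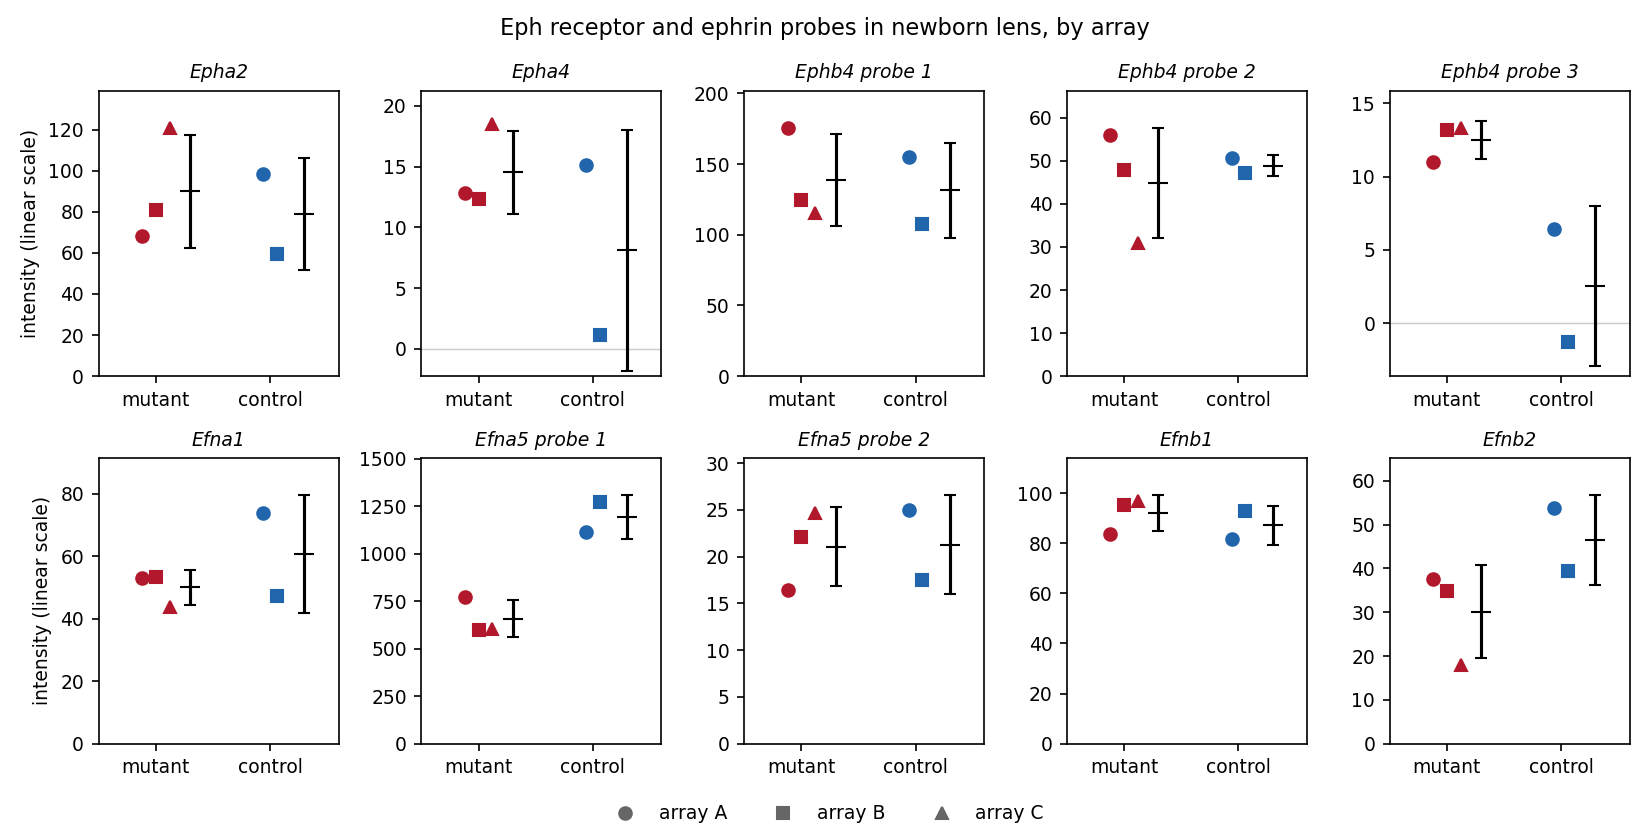
Intensity on the linear scale (y axis of each panel, with its own range) of the 10 probes of 7 Eph receptor and ephrin genes, on *Celf1*cKO/lacZKI arrays (red, left) and control arrays (blue, right). Points are arrays, with the shape giving the array letter, bars are mean and SD (n = 3 and n = 2), and probes of a gene are numbered by falling brightness. On the brighter *Efna5* probe all mutant points (600.1 to 772.2) lie under both control points (1112.4 and 1274.9), on *Efnb2* they also lie under them, and on *Ephb4* probe 3 above them.

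Of the 10 member probes 1 passed the adjusted threshold, the brighter *Efna5* probe, with 0 higher and 1 lower in the mutant. Over all 34885 probes 4.28% passed, 2.4% higher and 1.89% lower. The arrays of the groups did not overlap on 3 of the 10 member probes, against 30.9% of all probes. At an unadjusted p under 0.05, 2 of the 10 member probes and 15.2% of all probes passed. By the brightest probe of each gene 1 of 7 genes passed, against 5.82% of 19057 genes. The median log2 fold change was 0.025 over the member probes and 0.0020 over all probes. The other 6 genes are given by their values and intervals.

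The remaining ligands were *Efna1*, *Efnb1* and *Efnb2*. *Efnb2* encodes ephrin-B2, a transmembrane ligand that marks arteries. It read 37.6, 34.8 and 17.9 in the mutant, against 53.7 and 39.3 in the control. All mutant arrays lay below both controls, mutant array A only just, and mutant array C was the lowest. The log2 fold change was -0.33 (SE 0.15, 95% interval -0.67 to 0.02, limma adjusted p = 0.357) and did not pass. Over all probes 15.4% had every mutant array below every control array and 15.5% had every mutant array above every control array. In mutant array C alone the value was -0.60 (limma adjusted p = 0.107), without mutant array C it was -0.19 (adjusted p = 0.512) and without control array A -0.20 (adjusted p = 0.578).

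*Efna1* encodes ephrin-A1, a ligand of EphA2 in many epithelia. It read 53.1, 53.4 and 43.7 in the mutant, against 74.0 and 47.3 in the control. Control array A was the highest of the 5 and control array B lay among the mutant arrays. The log2 fold change was -0.15 (95% interval -0.45 to 0.14, limma adjusted p = 0.649). *Efnb1* encodes ephrin-B1 and lies on the X chromosome. It read 83.8, 95.3 and 96.9 in the mutant, against 81.7 and 92.7 in the control. The groups overlapped, and the 2 arrays with *Eif2s3y* signal, mutant A and B, lay between the lowest and the highest of the other 3. The log2 fold change of *Efnb1* was 0.05 (95% interval -0.15 to 0.26, limma adjusted p = 0.838), the narrowest interval of the 10 probes, and it was 0.11 in mutant array C alone.

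Among the receptors, *Epha2* encodes the main A-class receptor of the lens, and changes in the human gene cause inherited cataract. Its probe read 68.0, 81.1 and 120.9 in the mutant, against 98.2 and 59.7 in the control. Mutant array C was the highest and control array B the lowest, with the other 3 arrays between them. The log2 fold change was 0.13 (SE 0.20, 95% interval -0.33 to 0.59, limma adjusted p = 0.829). It was 0.47 in mutant array C alone (limma adjusted p = 0.409) and -0.04 without that array. With this spread a log2 change of 0.89 or more would have been needed to pass, so that a change the size of that of the brighter *Efna5* probe (-0.83) could not have been called on the *Epha2* probe.

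*Epha4* encodes a receptor that binds ligands of both classes. It read 12.8, 12.3 and 18.5 in the mutant, against 15.1 and 1.1 in the control. Only control array B stood apart. The log2 fold change was 0.21 (95% interval -0.11 to 0.53, limma adjusted p = 0.550). In its mean over the arrays the probe was brighter than 64.3% of all probes.

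*Ephb4* encodes the venous receptor of ephrin-B2 and had 3 probes annotated to 1 record. The brightest read 175.7, 124.7 and 115.6 in the mutant, against 155.0 and 107.7 in the control, with a log2 fold change of 0.06 (95% interval -0.33 to 0.46, limma adjusted p = 0.920). The second probe read 56.0, 47.8 and 31.0 in the mutant, against 50.6 and 47.2 in the control, with a log2 fold change of -0.08 (95% interval -0.39 to 0.23, limma adjusted p = 0.844). On both probes mutant array A was the highest of the 5 arrays and the groups overlapped. The dimmest probe read 11, 13.2 and 13.3 in the mutant, against 6.4 and -1.3 in the control. Its mutant arrays lay above both controls, and its log2 fold change was 0.33 (95% interval 0.10 to 0.57, limma adjusted p = 0.139). It passed only without control array A (0.48, adjusted p = 0.0490), which leaves control array B alone, at an intensity below 0. Without control array B it was 0.19 (limma adjusted p = 0.508). The 3 pairwise differences between the changes of the *Ephb4* probes had exact permutation p-values between 0.2 and 0.5.

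Vessel markers were read beside the pair of *Ephb4* and *Efnb2*, since a vascular net surrounds the newborn lens. Of 16 vessel markers 0 rose and 1 fell, against 3.15% and 2.68% of all genes, with a median log2 fold change of -0.05. Their summed intensity was 3442, 2693 and 3012 in the mutant, against 3518 and 3085 in the control, so the groups overlapped. The endothelial genes *Pecam1* and *Cdh5* had log2 fold changes of -0.05 and 0.10 (limma adjusted p = 0.852 and 0.689). The marker that fell was *Rgs5*, a pericyte gene, with a log2 fold change of -1.04 (limma adjusted p = 0.0367). The part of the vessels in the *Efnb2* and *Ephb4* values was not tested.

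The rest of the family read low in these lenses and gave no call. The 10 other Eph receptors had 30 probes, with intensities between -5.7 and 63.4 over the 5 arrays, and 0 of these probes read above 30 on every array. The 4 other ephrins had 5 probes, between -7.2 and 23.4. By limma 0 of the 35 probes passed the adjusted threshold and 1 had an unadjusted p under 0.05. This was a probe of *Epha5*, a receptor best known from the nervous system, which read 46.7, 37.3 and 63.4 in the mutant, against 30 and 30.6 in the control. Its mutant arrays lay above both controls, with a log2 fold change of 0.35 (SE 0.13, limma adjusted p = 0.232), and the annotation gives it no transcript record. The other 5 *Epha5* probes had log2 fold changes between -0.05 and 0.13. Among the other ephrins the smallest p was that of *Efna3*, at 0.17 (limma adjusted p = 0.534) and intensities no higher than 1.1.

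**Figure D2:**
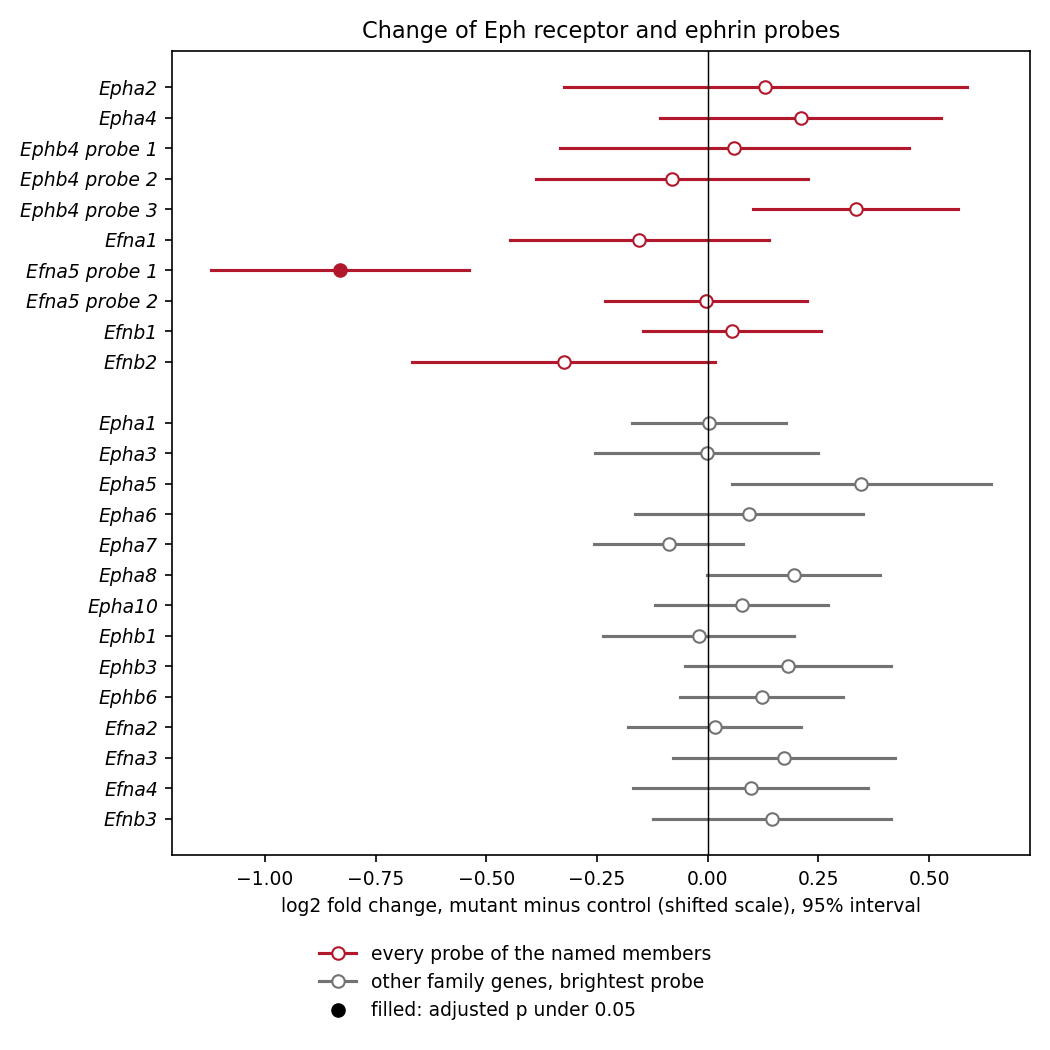
Log2 fold change (x axis, mutant minus control on the shifted scale) with its 95% interval for the 10 member probes (red) and the brightest probe of each of 14 other Eph receptor and ephrin genes (gray), one per row. A filled point marks an adjusted p under 0.05. The brighter *Efna5* probe at -0.83 is the single filled point, and the next most negative value is -0.33 for *Efnb2*.

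Genes that work with Eph receptors and ephrins inside the cell were read from 5 lists, for adaptors and kinases, regulators of small GTPases, partners of ephrin reverse signalling, phosphatases and proteases, and the adherens junction. Together with the other family members these lists hold 93 genes, of which 90 had a probe. By the brightest probe 10 of the 90 passed, 2 higher and 8 lower in the mutant, which is 11.1% against 5.82% over all genes, 3.15% of them higher and 2.68% lower. Their median log2 fold change was -0.013, against -0.0027 over all genes. Counts of genes come from a fit over genes by the brightest probe, and the values of single probes below from the fit over all probes, in which the same 10 probes passed. The lists were drawn up with earlier results of these arrays known. Over probes, 13 of 225 passed, 5.78% against 4.28%.

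Regulators of small GTPases included the 2 genes that rose. *Cdc42*, the small GTPase of filopodia and cell polarity, read 511.4, 565.0 and 392.8 in the mutant, against 257.2 and 146.6 in the control, with a log2 fold change of 1.17 (SE 0.21, limma adjusted p = 0.0243). *Vav2*, an exchange factor that binds activated Eph receptors, read 832.0, 732.3 and 517.9 in the mutant, against 373.8 and 331.5 in the control, with a log2 fold change of 0.89 (SE 0.18, limma adjusted p = 0.0350). For both genes every mutant array lay above both controls, and mutant array C was the lowest of the 3. Each has 3 further probes, and none of these 6 read above 21.5 or passed. *Limk2*, a kinase that restrains cofilin, fell by 0.56 (SE 0.10, limma adjusted p = 0.0265). The other 20 of 23 measured genes of this list did not pass, *Rac1* and *Rhoa* among them, and their list median was 0.02.

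Of 19 measured adaptors and kinases 1 passed, the adaptor gene *Crk*, which fell by 0.45 (SE 0.09, limma adjusted p = 0.0325). Of 12 reverse signalling partners 1 passed, *Grip1*, whose PDZ protein binds the tail of B-class ephrins. *Grip1* read 61.6, 67.6 and 84.9 in the mutant, against 116.2 and 113.3 in the control, and fell by 0.49 on this probe and by 0.54 on another (limma adjusted p = 0.0424 and 0.0111). Another of its 6 probes had a log2 fold change of -0.46 and did not pass (limma adjusted p = 0.102). Among 10 phosphatases and proteases *Inppl1* and *Adam17* fell. *Inppl1*, the lipid phosphatase SHIP2 that binds EphA2, read 223.9, 237.4 and 240.7 in the mutant, against 367.6 and 354.9 in the control, and fell by 0.56 and 0.58 on 2 of its 3 probes (limma adjusted p = 0.00855 and 0.00813). *Adam17*, a membrane protease, read 115.8, 103.4 and 109.7 in the mutant, against 200.1 and 173.4 in the control, and fell by 0.61 (limma adjusted p = 0.00974). *Adam10*, the protease known to cut ephrin-A5 in contact with its receptor, read between 2.8 and 12.1 on its brightest probe and did not pass (log2 fold change -0.14, limma adjusted p = 0.574).

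The adherens junction holds N-cadherin and the catenins, with which ephrin-A5 signalling has been linked in the mouse lens. Of 12 measured junction genes 3 fell and 0 rose by their brightest probe, with a median log2 fold change of -0.21. *Ctnnd2*, or delta-catenin, read 147.5, 151.1 and 147.4 in the mutant, against 395.7 and 347.1 in the control, which is a log2 fold change of -1.14 (SE 0.08, limma adjusted p = 0.00115), and its other 3 probes did not pass. The alpha-catenin genes *Ctnna1* and *Ctnna2* fell by 1.05 and 0.93 (limma adjusted p = 0.0172 and 0.0379). *Nectin3*, a cell adhesion gene, had probes of opposite sign. Its brightest had a log2 fold change of -0.63 and did not pass (limma adjusted p = 0.0641), and a dimmer one, of another transcript record, rose by 1.13 (limma adjusted p = 0.00408), reading 121.6, 165.4 and 164.9 in the mutant, against 53.5 and 43.8 in the control. *Cdh2*, the N-cadherin gene, read between 8.9 and 21.4 on its brightest probe and did not pass, and *Cdh1*, the E-cadherin gene of the epithelium, had a log2 fold change of -0.45 (limma adjusted p = 0.331). On their brightest probes *Ctnnb1*, the beta-catenin gene, had -0.67 and *Afdn* had 0.64, and neither passed (limma adjusted p = 0.281 and 0.150).

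Without control array B 2 of these 10 genes passed, *Adam17* and *Ctnnd2*. In mutant array C alone 3 passed, *Ctnna1*, *Ctnna2* and *Ctnnd2*, and the other omissions left 5 (mutant A), 4 (mutant B), 9 (mutant C) and 6 (control A).

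**Figure D3:**
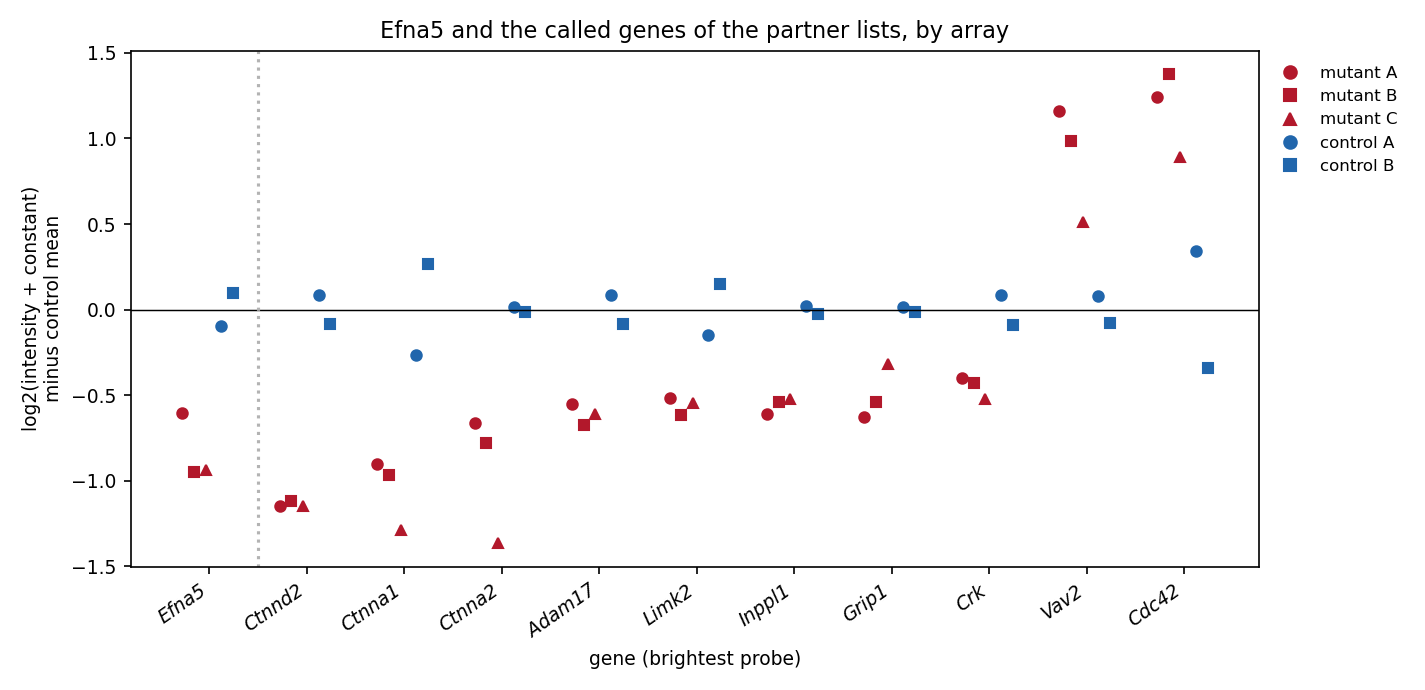
Log2 of intensity plus the constant, minus the mean of the 2 control arrays (y axis), for the brighter *Efna5* probe and the brightest probes of the 10 called partner genes (x axis). Red points are *Celf1*cKO/lacZKI arrays and blue points control arrays, with the shape giving the letter. *Efna5* and 8 partner genes have every mutant point under both control points, and *Vav2* and *Cdc42* have every mutant point above them.

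The probes with the pattern most like that of the brighter *Efna5* probe were looked for among 18954 probes of other genes above the median brightness, by the mean absolute difference of log2 values over the 5 arrays after centring each probe on its mean. They were probes of *Prune2* (0.05), *Tpd52l2* (0.07) and *Derl2* (0.07, a gene of protein export from the endoplasmic reticulum), with log2 fold changes of -0.75, -0.84 and -0.74. For the dimmest *Ephb4* probe, the member with the next smallest p, they were probes of *Sesn1*, *Fam185a* and *Wrap53* (0.02 each), with log2 fold changes of 0.32, 0.37 and 0.30. The likeness was taken on the shifted scale, where changes of dim probes are understated. In mean intensity *Prune2*, *Tpd52l2* and *Derl2* read 42.4%, 40.8% and 45.8% of control, against 55.2% for the *Efna5* probe. *Sesn1*, *Fam185a* and *Wrap53* read 504%, 149% and 158% of control, against 490% for the *Ephb4* probe. This likeness over 5 arrays also includes the group difference itself and is given as a description.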

How the data were processed

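Lens RNA of newborn mice had been run on 5 Illumina MouseWG-6 v2.0 arrays (3 mutant, 2 control). Per the methods the authors used lumi for background correction and Rank Invariant normalization, and they deposited 1 linear intensity per probe and array. Neither tool's version is stated in the sources used here. All 5 columns were used, and with no detection p in the table no background level was set per probe. Before log2 a constant of 36.5 was added. Tests were two-sided, by lmFit and eBayes of limma 3.58.1 (R 4.3.3) without a block and with Benjamini-Hochberg adjustment, over 34885 probes with 1 gene symbol, and again over 19057 genes by the brightest probe. Of the other probes, 18 had several symbols and 10378 none. Symbols came from the platform annotation. Probes of 1 gene were compared by an exact permutation test of per-array differences. Precision is limited by the number of arrays. The limma p-values rest on the spread between these biological replicates, moderated by eBayes toward the spread over all probes.

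The members and lists were chosen with earlier results of these data known. Named genes are all member probes, up to 6 called genes of each list (or its smallest p where none passed), the 3 nearest probes to each of 2 member probes, *Celf1* and sex-linked genes, with others named after their values were seen. The code was tested on simulated data for the comparison of 3 with 2 arrays over 34885 probes, where 91 of 100 probes with a log2 change of 1 were recovered, 100 of 100 with one of 2, and 11 unchanged probes were called. Alternatives were other constants, quantile normalization, median centring, leaving out dim probes, an intensity trend, no moderation, array weights, a block for the replicate letter, mutant array C alone, all probes of the table, averaging the probes of a gene, and leaving out each array. Python 3.11.15 with matplotlib 3.10.9 drew the figures. Without a build named in the files no coordinates are given, and probe sequences were not used here.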

Additional observations from a re-analysis of the deposited data

How the results depend on the processing

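Of the 16 alternatives, leaving out dim probes, the intensity trend, no moderation and the use of all probes cannot move a log2 fold change. The replicate block repeats the log2 fold change found without mutant array C. The fall of the brighter *Efna5* probe kept its direction in all 16 (log2 fold change -0.94 to -0.73) and passed in 13. It did not pass with values below 0 set to 0 and a constant of 16 (-0.85, adjusted p = 0.0916), without moderation (-0.83, adjusted p = 0.306) or without control array B (-0.73, adjusted p = 0.114). Leaving out each array in turn, between 0 and 2 member probes and between 0 and 1 member genes passed by limma, with 0 of each without control array B (2 probes and 2 genes at an unadjusted p under 0.05) and 2 probes, *Efna5* and the dimmest *Ephb4* probe, without control array A. Of the probes in the 7 lists of family members and partners, 2 to 13 passed in these settings (13 with all arrays), the fewest without control array B and 6 without mutant array B. With the constant of 16, 0 member probes and 0 member genes passed, with 2 and 1 at an unadjusted p under 0.05, and 1 list probe. Without moderation 0 member probes, 0 member genes and 0 list probes passed, with 1, 1 and 29 at an unadjusted p under 0.05. Over all probes 1494 passed, and 232 with the constant of 16, 4 without moderation, 728 without mutant array B and 420 without control array B. The cause was not tested.

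The replicate letter is shared by both groups. Deviations from the group means correlated at -0.00028 between the A arrays and at 0.020 between the B arrays, so the letters were not taken as pairs. With the letter as a replicate block 1 member probe passed, *Efna5* at -0.77 (adjusted p = 0.00458), with 1 member gene and 16 list probes. Letter C occurs only in the mutant, so the block takes up that array. Its log2 fold changes therefore equal those without mutant array C.

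Values that did not pass changed sign in some settings. The dimmer *Efna5* probe had 0.015 after quantile normalization, 0.0072 after median centring and 0.087 in mutant array C alone, and -0.098 to 0.090 as arrays were left out. *Epha2* had -0.038 with the block and -0.11 to 0.37 as arrays were left out. The second *Ephb4* probe had 0.049 with the block and -0.18 to 0.049 as arrays were left out. The brightest *Ephb4* probe had -0.13 in mutant array C alone and -0.14 to 0.27 as arrays were left out, and the difference between the changes of these probes was -0.035 to 0.32. The same ranges were -0.35 to 0.045 for *Efna1*, -0.0094 to 0.12 for *Efnb1* and -0.018 to 0.44 for *Epha4*. *Efnb2* and the dimmest *Ephb4* probe kept their sign, at -0.45 to -0.19 and 0.19 to 0.48 as arrays were left out, and at -0.20 and 0.16 with the lowest value at 64 and -0.46 and 0.59 with the constant of 16. With the block *Efnb2* was -0.19. A log2 change between 0.39 (*Efnb1*) and 0.89 (*Epha2*) was needed for a member probe to pass.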

Other observations

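Markers of 5 other tissues were summed over each array, and 0 of these genes read above 100 on all 5 arrays. The summed intensities on the mutant and control arrays were 67.3 to 101.7 and 71.0 to 78.1 for 7 leukocyte genes, 31.3 to 43.2 and 56.5 to 83.5 for 7 retina genes, 69.3 to 117.4 and 61.1 to 152.6 for 7 pigment cell genes, 45.5 to 52.3 and 39.2 to 58.1 for 10 genes of cornea and mesenchyme, and 53.3 to 67.3 and 44.8 to 57.1 for 7 skeletal muscle genes. For 4 red blood cell genes the sums were 1281 to 4521 on the mutant arrays and 1470 to 2032 on the control arrays, with mutant array A the highest, the array on which both brighter *Ephb4* probes were also highest. *Hba-a1*, a hemoglobin gene, made up most of these sums. The part of blood in those values was not tested. Of the 42 genes in these 6 lists 0 passed by limma, against 5.82% of all genes. At an unadjusted p under 0.05 there were 5, against 17.8% of all genes.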
